A study of Mus musculus with 4 samples.

Results

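The secreted Wnt inhibitors of the neonatal mouse testis were examined as a family of 9 genes, Sfrp1, Sfrp2, Sfrp4, Sfrp5, Frzb, Dkk1, Dkk2, Dkk3 and Wif1. Every probe set of the array whose only gene symbol was 1 of these names was taken, which gave 17 probe sets of 45037. The family was singled out because Sfrp4 stood among the genes with the largest differences between the groups compared here, so the differences of its members are given as a description with no p-value, and the calls of the fit are given for them only as a count beside the background share. The tissue was the testis of 129 strain mice at 2 days post partum, kept in organ culture for 24 h. The 2 vehicle arrays held RNA of testes cultured with dimethyl sulfoxide, and the 2 treated arrays RNA of testes cultured with WIN 18,446 at 1 µM. All cultures shared a medium with 10% fetal bovine serum. No allele other than the strain is given, and the labels do not say whether the numbered samples came from separate animals or cultures, so all spreads are those between these samples and may be technical. WIN 18,446 is an inhibitor of the retinaldehyde dehydrogenases, which make retinoic acid. The comparison asks which transcripts differ between cultures with and without the drug, and a loss of retinoic acid in them was not tested.

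Wnt proteins are secreted signals that bind Frizzled receptors together with the co-receptors Lrp5 and Lrp6, which stabilises beta-catenin and lets it act with TCF/LEF factors on target genes. Secreted Frizzled-related proteins (the Sfrp family and Frzb) carry a cysteine-rich domain like that of the receptors and bind Wnt proteins outside the cell, and Wif1 binds them through a domain of its own. Dkk1 and Dkk2 instead bind Lrp5 and Lrp6, while Dkk3 is the divergent member of the Dickkopf family. In the mouse gonad, Wnt4 signalling is best known for its part in ovarian development.

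Levels are log2 values, and differences are WIN 18,446 minus vehicle on the log2 scale. The highest of 27 bacterial control probe sets without a target in mouse RNA read 2.22, and a probe set at or below that on every array is called at background. Median levels of the 4 arrays lay between 3.72 and 3.83, and the 3' minus 5' difference of the Gapdh control probe sets lay between 0.72 and 0.83. Treated array 1 stood apart in 2 control probe sets, that of the 5' end of 18S RNA, at 6.55 against 8.12 to 8.67 on the other arrays, and that of the B1 repeat, at 13.52 against 12.73 to 12.93. Germ cell and Sertoli cell markers were present as the tissue label implies, with Ddx4, a germ cell helicase, between 11.68 and 12.03 and Sox9, a Sertoli cell factor, between 12.21 and 13.53.

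The family split by gene. Sfrp4 and Sfrp2 were higher on both treated arrays, all 5 probe sets of Sfrp1 and both of Frzb were lower, Dkk3 differed little, and Sfrp5, Dkk1 and Dkk2 were at background. Of the 17 probe sets, 10, of 5 genes (Sfrp1, Sfrp2, Sfrp4, Frzb and Dkk3) reached a mean level of 5 over the 4 arrays, and the other 7 did not. Among those 10 the groups did not overlap in 9, of which 2 were higher and 7 lower, beside 53.1% of all 20895 probe sets at that level (23.8% higher and 29.3% lower). The limma fit over the whole table called 5 of the 10, 1 higher and 4 lower, at an adjusted p under 0.05, beside 5.18% of all probe sets tested (2.27% higher and 2.91% lower). Because the family was picked from this contrast, nothing is read from either count. The number called was 2 when the variance had no trend, beside 372 of all 20895. It was 6 with array medians set equal and 7 with the replicate number as a block, beside 1242 and 1467. With a mean of at least 7 it was 4 of 7, beside 1263 of 18321, and Sfrp4 and Frzb were not tested. When all 45037 probe sets entered it was 0, beside 3. Of the 17 probe sets 8 then had an unadjusted p under 0.05, beside 5250 of all 45037. A fit with 1 array left out holds 1 array in a group, so for the family only its differences are given below.

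**Figure D1:**
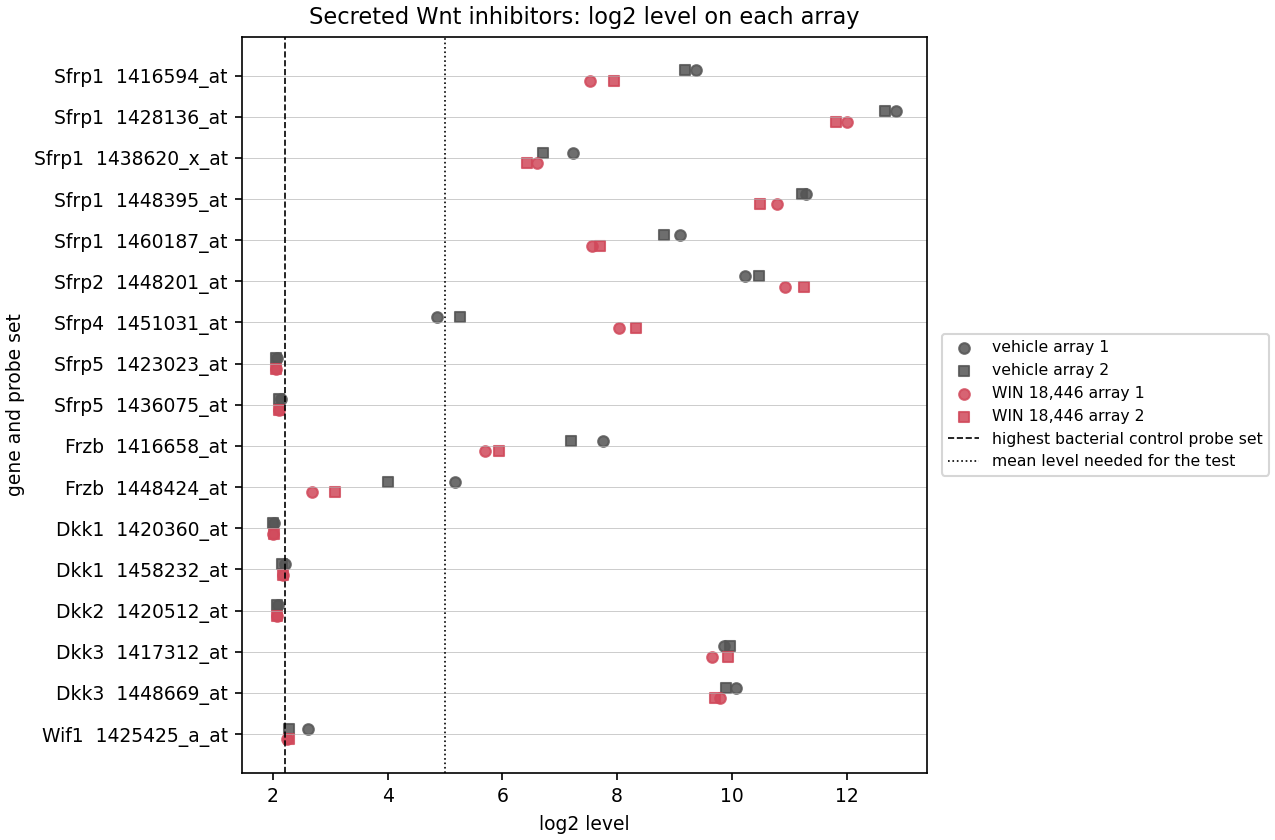
Log2 level of each of the 17 probe sets of the secreted Wnt inhibitors on each array, with vehicle arrays in grey and WIN 18,446 arrays in red. The dashed line marks the highest bacterial control probe set (2.22) and the dotted line the mean level of 5; Sfrp4 stands at 4.86 and 5.27 with vehicle and at 8.04 and 8.33 with WIN 18,446.

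Sfrp4, which is known from the rodent ovary as a gene of follicle and luteal cells, showed the largest difference of the family. Its only probe set (1451031_at) read 4.86 on vehicle array 1 and 5.27 on vehicle array 2, against 8.04 and 8.33 with WIN 18,446. Both vehicle arrays thus lay near the level of 5 and both treated arrays about 3 log2 units above it, with no overlap. The means were 5.06 ± 0.29 (SD, n = 2) and 8.18 ± 0.20 (SD, n = 2), a difference of 3.12 or 8.7-fold. With 1 array left out at a time the difference lay between 2.92 and 3.32. No second probe set of the gene was there to set beside it.

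Sfrp2, which acts together with Sfrp1 in the shaping of the mouse gonad, was also higher. Its probe set read 10.23 and 10.47 with vehicle and 10.93 and 11.26 with WIN 18,446. The groups did not overlap, and the gap between their nearest arrays was somewhat wider than that between the treated arrays. The difference was 0.75 (means 10.35 ± 0.17 and 11.09 ± 0.24, SD, n = 2 each), or 1.68-fold, and ranged from 0.58 to 0.91 with 1 array left out.

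Sfrp1, a Wnt antagonist of many embryonic tissues, was lower on both treated arrays in each of its 5 probe sets, though by different amounts. Probe set 1416594_at read 9.38 and 9.19 with vehicle and 7.52 and 7.95 with WIN 18,446, a difference of -1.55. Probe set 1460187_at read 9.10 and 8.82 against 7.56 and 7.70, a difference of -1.33. These are the probe sets with the largest differences of the gene, and in both the groups lay more than 1 log2 unit apart. The brightest, 1428136_at, read 12.86 and 12.67 against 12.01 and 11.82, a difference of -0.85. Probe set 1448395_at read 11.29 and 11.22 against 10.79 and 10.49, a difference of -0.62. The smallest difference, -0.44, was that of 1438620_x_at, a probe set whose suffix marks probes that can bind other transcripts. It read 7.23 and 6.70 against 6.61 and 6.43, so that its groups nearly met. The mean over the 5 probe sets was -0.96, and each stayed negative with any 1 array left out. All 5 share the same 4 RNA samples and are not replicates of each other.

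Frzb, also known as Sfrp3 and described as a Wnt antagonist of developing cartilage, was lower in both of its probe sets. Probe set 1416658_at read 7.76 and 7.19 with vehicle and 5.70 and 5.94 with WIN 18,446, which is 7.47 ± 0.40 against 5.82 ± 0.17 (SD, n = 2 each). The difference was -1.66, or 3.15-fold lower, and lay between -1.94 and -1.37 with 1 array left out. The dimmer probe set 1448424_at read 5.18 and 4.0 against 2.69 and 3.09, a difference of -1.70. The vehicle arrays differed by more than 1 log2 unit there, and the difference moved between -2.29 and -1.11 with 1 array left out, which is 2.15-fold to 4.9-fold. Its mean over the 4 arrays was 3.74, so it was not tested.

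**Figure D2:**
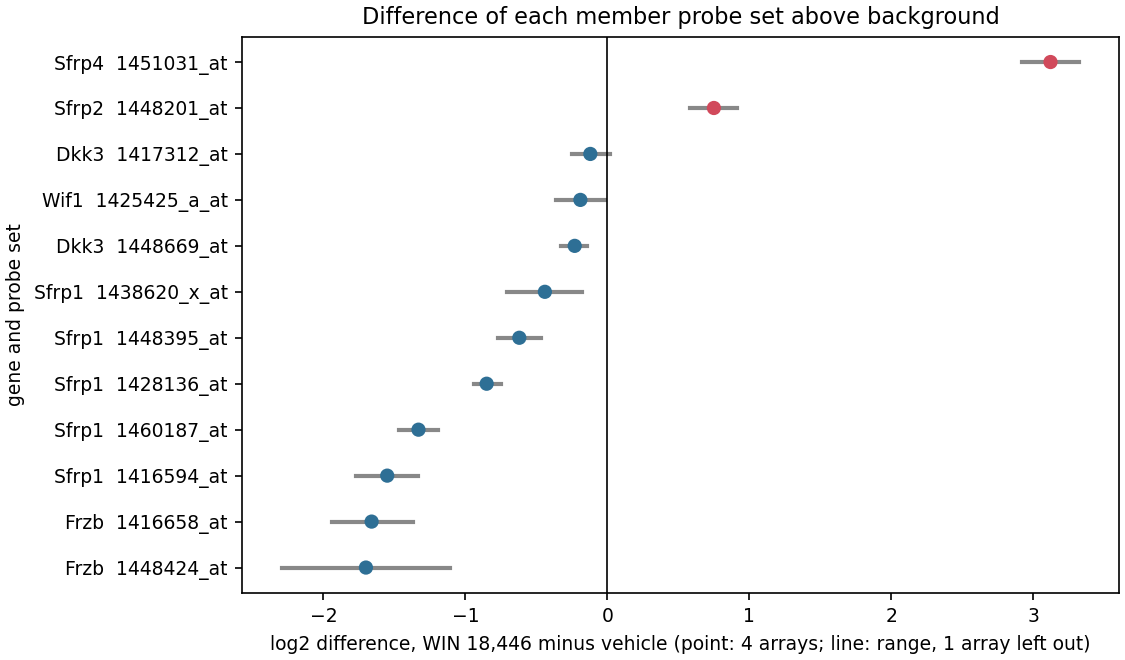
Log2 difference, WIN 18,446 minus vehicle, of the 12 probe sets of the family that were not at background, with the range over leaving out each array as a line. Sfrp4 (3.12) and Sfrp2 (0.75) lie above 0 and the Sfrp1 and Frzb probe sets between -1.70 and -0.44, while the ranges of Dkk3 1417312_at (-0.25 to 0.02) and Wif1 (-0.36 to -0.02) reach across or close to 0.

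Promoters of 6 of the 9 genes were found in the RefSeq promoter table of assembly GRCm38.p6, which gives 250 bases before to 50 bases after each gene's start. Sfrp1, Sfrp4 and Dkk3 had none there and were not searched, and a link between motif and direction was not tested. Those of Frzb and Sfrp2 are shown because these genes differed in opposite directions. They were searched on both strands for AGGTCA, a core motif within the sites of retinoic acid receptors and many other nuclear receptors. They were also searched for CTTTGA, a core shared by many TCF/LEF sites, and the capitals mark the matches. The Frzb promoter lies at chr2:80447347-80447646 on the minus strand and the Sfrp2 promoter at chr3:83766071-83766370 on the plus strand.
Frzb promoter: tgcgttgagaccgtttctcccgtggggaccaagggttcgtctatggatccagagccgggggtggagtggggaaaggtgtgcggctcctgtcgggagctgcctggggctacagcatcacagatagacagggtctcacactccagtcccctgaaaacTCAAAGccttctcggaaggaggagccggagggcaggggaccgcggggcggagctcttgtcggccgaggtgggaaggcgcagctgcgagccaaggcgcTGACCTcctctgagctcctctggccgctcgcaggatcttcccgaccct
Sfrp2 promoter: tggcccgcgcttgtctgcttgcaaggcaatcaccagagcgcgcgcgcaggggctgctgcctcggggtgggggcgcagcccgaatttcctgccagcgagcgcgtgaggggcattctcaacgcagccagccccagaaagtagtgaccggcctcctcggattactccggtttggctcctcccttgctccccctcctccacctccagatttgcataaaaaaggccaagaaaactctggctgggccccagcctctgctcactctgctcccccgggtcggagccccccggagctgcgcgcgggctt
The Frzb promoter held 1 match to each motif, both on the opposite strand, the AGGTCA match starting at base 253 of 300 and the CTTTGA match at base 156. The Sfrp2 promoter held neither. Of the 6 promoters 1 held AGGTCA (Frzb) and 2 held CTTTGA (Frzb and Dkk1), while AGGTCA occurs in 16.3% and CTTTGA in 16% of the 32851 promoters of the table. The matches do not overlap, and a match describes letters and not a bound site. Both promoters were rich in G and C, at 64.7% for Frzb and 66% for Sfrp2 against a median of 52.7% over the table.

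Dkk3, which unlike its relatives is not known as a strong Lrp5 and Lrp6 antagonist, was present at nearly equal levels in all samples. Probe set 1417312_at read 9.87 and 9.96 with vehicle and 9.66 and 9.93 with WIN 18,446, and the groups overlapped. Probe set 1448669_at read 10.07 and 9.89 against 9.80 and 9.70, a difference of -0.23 without overlap. The first had a difference of -0.12, which turned to 0.02 with 1 array left out, so it has no settled direction. Wif1 read 2.62 on vehicle array 1 and 2.24 to 2.28 on the other arrays, just above the bacterial controls, and its groups overlapped. Both probe sets of Sfrp5, both of Dkk1 and that of Dkk2 lay at or below 2.22 on all 4 arrays, between 2.01 and 2.21. For these 3 genes no level and no fold is given in either group.

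The genes whose levels over the 4 arrays were most like those of Sfrp4, each centred on its own mean, were Gper1, Tnnc1, Sgpp2, Zg16, Ctse and A2m. The root mean square difference from Sfrp4 was 0.0547 log2 units for Gper1, a membrane estrogen receptor, which read 5.85 and 6.22 with vehicle and 8.91 and 9.20 with WIN 18,446. It was 0.147 for Tnnc1, a troponin subunit, 0.169 for Sgpp2, a sphingosine phosphate phosphatase, and 0.216 to 0.247 for Zg16, Ctse and A2m. This likeness rests on 4 arrays and on a large difference between the groups in each gene. The nearest protein-coding genes with a probe set on either side of Sfrp4 on chromosome 13 differed from it in size or direction. Epdr1 read 10.24 and 10.00 against 10.27 and 10.91 (difference 0.47), higher without overlap, though treated array 1 lay close to vehicle array 1. Nme8, whose mean lay under 5, read 6.58 and 5.51 against 3.73 and 3.72 (difference -2.32).

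The rest of the pathway was read from 8 lists of genes grouped by role, each gene by its tested probe set of highest mean. Of 126 pathway genes with a probe set 84 were tested, and limma called 4 of them (4.76%), beside 6.4% of all 10970 genes tested this way. All 4, Wnt4, Wnt6, Daam2 and Prickle1, fell and none rose, where 2.94% of all genes rose and 3.46% fell. The median difference was -0.04 over the 84 genes and -0.02 over all tested genes. An unadjusted p under 0.05 was reached by 18 of the 84, beside 2746 of all 10970. The unadjusted counts of each list below are to be set beside that share. The groups did not overlap in 15 pathway genes that were higher and 34 that were lower (17.9% and 40.5%, beside 24.8% and 31.8% of all tested genes). Without either vehicle array the count of 4 became 0, with 10 and 9 of the 84 at an unadjusted p under 0.05. Of the 42 pathway genes not tested, 26 were at background on all arrays.

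Among the Wnt ligands, Wnt4 and Wnt6 fell. Wnt4, the ligand that promotes ovarian and opposes testicular development, read 9.64 and 9.62 with vehicle and 7.29 and 6.92 with WIN 18,446. The difference was -2.52 (SE 0.20, adjusted p = 0.0109 in limma), or 5.75-fold lower. Its second probe set read 9.30 and 8.79 against 6.64 and 6.29, so both probe sets separated the groups by more than 2 log2 units. Wnt6, a ligand known from epithelial and mesodermal development, read 12.87 and 12.68 against 12.25 and 12.10 (difference -0.60, SE 0.10, adjusted p = 0.0418 in limma). That probe set holds probes that can bind other transcripts, and the second, without that mark, had a difference of -0.86 (adjusted p = 0.0229 in limma). With 1 array left out the difference of the first probe set lay between -0.70 and -0.50. Neither probe set was called without the variance trend or without the level filter. The first then had adjusted p-values of 0.109 and 0.159 in limma. Of 19 ligands 5 were tested, 2 fell, 0 rose and 3 were not called. Wnt5a, the main ligand of the beta-catenin-independent branch, read 11.47 and 11.56 against 11.56 and 11.69, and its 3 tested probe sets had differences of 0.11, -0.17 and 0.01. Wnt5b (-0.24) and Wnt9a (0.04) were not called either. The other 14 ligands had mean levels under 5, among them Wnt1, Wnt3a and Wnt11 at background on all arrays.

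None of the 17 tested Frizzled receptors and co-receptors was called by limma, with 4 at an unadjusted p under 0.05 and a median difference of -0.13. Kremen1, which works with the Dickkopf proteins in removing Lrp6 from the cell surface, read 9.74 and 9.51 against 9.0 and 9.03 (difference -0.61, adjusted p = 0.0965 in limma). Fzd6 had a difference of -0.67 and Fzd4 of -0.83 (adjusted p = 0.1 and 0.149 in limma). All 3 were lower on both treated arrays without passing the test. Fzd9, with a mean of 4.80 just under the level needed, read 5.85 and 5.78 against 4.02 and 3.54, a difference of -2.04. Its adjusted p in limma was 0.0245 when a level of 5 was needed on only 2 of the arrays and 0.148 when no level was needed.

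Among 8 tested genes of other secreted or surface modulators limma called 0, with 1 at an unadjusted p under 0.05 and a median of -0.08. Rspo3, an R-spondin that strengthens Wnt signalling, read 8.59 and 7.77 against 6.78 and 7.12 (difference -1.23, adjusted p = 0.11 in limma), with a wide spread between the vehicle arrays. Its relative Rspo2 lay under the level needed and read 3.70 and 3.64 against 4.87 and 6.04, a difference of 1.78. Trabd2b, a Wnt-cleaving protease, and the glypican Gpc4 had differences of -0.46 and -0.12 (adjusted p = 0.258 and 0.342 in limma). Of 7 genes of Wnt secretion limma called 0, with 0 at an unadjusted p under 0.05, and Porcn, the enzyme that puts the lipid on Wnt proteins, had a difference of -0.13 (adjusted p = 0.742). Tmed10, which serves membrane traffic, differed by -0.03. Vps35, a retromer subunit, differed by 0.14, and its second, dimmer probe set read 9.0 and 9.02 against 9.91 and 9.63, a difference of 0.76 (adjusted p = 0.0654 in limma).

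Inside the cell, 0 of 16 genes of the destruction complex and Dishevelled and 0 of 13 TCF/LEF factors and co-factors were called by limma, with 2 and 1 at an unadjusted p under 0.05 and medians of 0.03 and -0.03. Dvl1, a Dishevelled protein, read 13.42 and 13.46 against 13.68 and 13.66 (difference 0.23, adjusted p = 0.0863 in limma). Apc, a scaffold of the destruction complex, had a difference of -0.29, and its other 3 tested probe sets differed by -0.17, -0.65 and -0.70 (adjusted p = 0.549, 0.0758 and 0.0795 in limma). Amer1, another scaffold, differed by -0.22 and in its second probe set by -0.16. The co-repressor Tle2 read 9.67 and 9.66 against 9.09 and 8.31 (difference -0.96, adjusted p = 0.131 in limma), the treated arrays being far apart. The co-repressors Ctbp2 and Tle4 had differences of 0.33 and -0.16.

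Of 11 tested beta-catenin target genes limma called 0, with 3 at an unadjusted p under 0.05 and a median difference of -0.29. Axin2, the feedback inhibitor most often used as a reporter of the pathway, read 9.90 and 9.81 with vehicle and 9.26 and 9.80 with WIN 18,446. Its groups all but touched, and the difference of -0.33 was not called (adjusted p = 0.441 in limma). Cd44, an adhesion receptor, read 8.05 and 8.21 against 7.06 and 7.24 (difference -0.98, adjusted p = 0.0563 in limma). Edn1, which encodes endothelin, differed by -0.62 (adjusted p = 0.0871 in limma) and Zcchc12 by 0.76 (adjusted p = 0.157 in limma). Nkd1, Nkd2, Lgr5, Notum and Sp5, which the pathway induces in many tissues, had mean levels between 2.05 and 2.39 and were not tested.

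In the planar cell polarity list 2 of 10 tested genes fell, 0 rose and 8 were not called, with a median of -0.03. Daam2, a formin that binds Dishevelled, read 13.35 and 13.38 with vehicle and 12.49 and 12.35 with WIN 18,446 (difference -0.94, SE 0.08, adjusted p = 0.0115 in limma). Its second probe set differed by -1.56 (adjusted p = 0.0247 in limma). Prickle1, a core polarity protein, read 13.32 and 13.30 against 12.90 and 12.84 (difference -0.44, SE 0.06, adjusted p = 0.0296 in limma). The atypical cadherins Celsr2 and Celsr1 differed by 0.54 and 0.46 and the scaffold Scrib by -0.44, with adjusted p-values from 0.175 to 0.204 in limma.

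**Figure D3:**
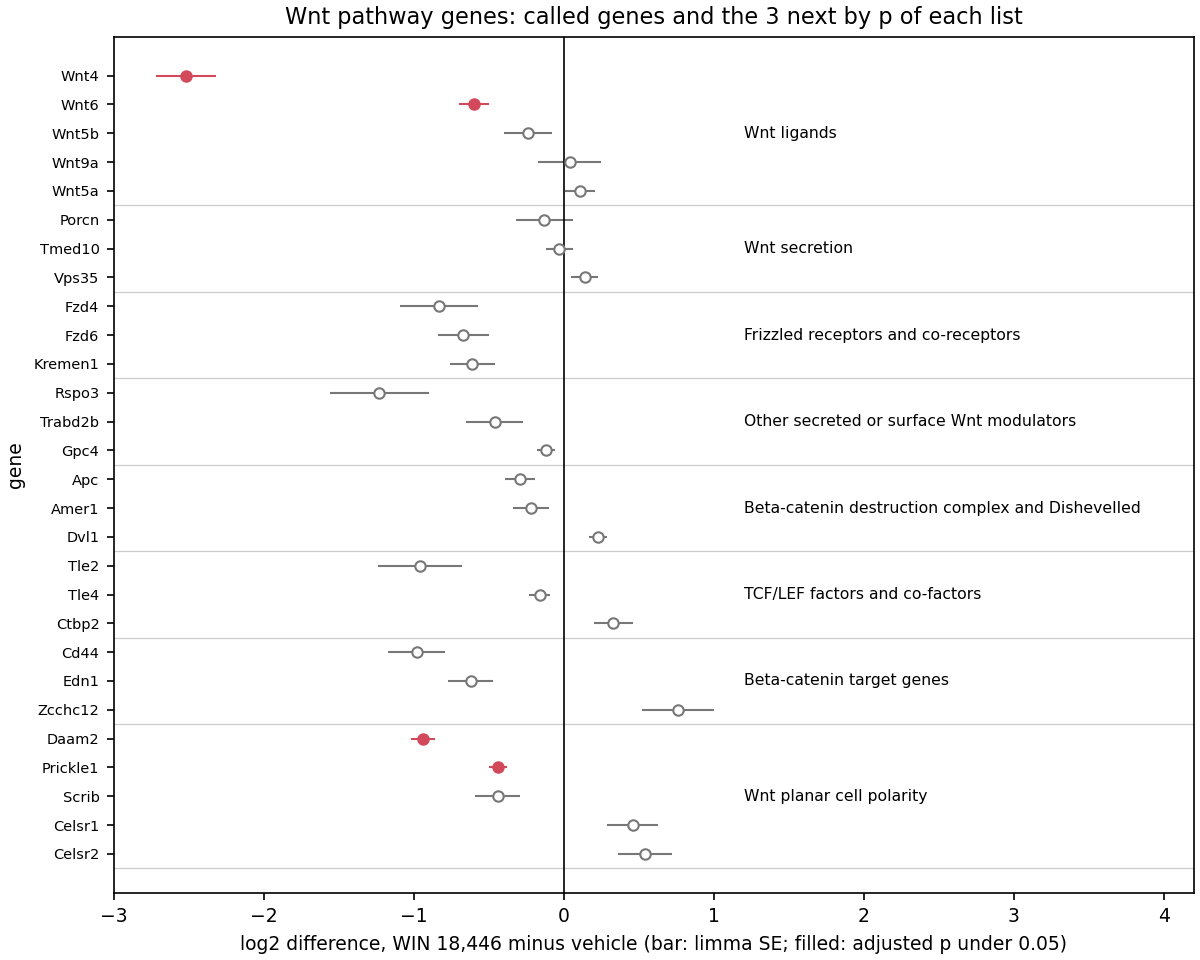
Log2 difference, WIN 18,446 minus vehicle, with its limma standard error, of the called genes (filled) and the 3 next genes by p of each Wnt pathway list. Wnt4 (-2.52), Daam2 (-0.94), Wnt6 (-0.60) and Prickle1 (-0.44) are the filled points, and all lie below 0.

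Markers of the cell types that the cultured testis can hold moved with the groups in part, and their part in the differences above was not tested. In bulk RNA, fewer cells of a type and less RNA per cell cannot be told apart. The counts below stand beside 6.4% of all tested genes called, 2.94% higher and 3.46% lower. Without overlap, 24.8% of all tested genes were higher and 31.8% lower. The log2 of the summed signal of 9 endothelial genes was 11.23 and 11.44 with vehicle and 10.61 and 10.52 with WIN 18,446. Of its 6 tested genes 1 (Robo4) fell, and all 6 were lower without overlap. For 9 Sertoli cell genes the sum was 16.89 and 16.83 against 16.52 and 16.48, and 5 of 9 fell, among them Cldn11 and Sox9. Without overlap, 7 of the 9 (77.8%) were lower on the treated arrays and 2 (22.2%) higher. Among the 2 was Amh, the anti-Müllerian hormone, at 9.37 and 9.85 against 11.12 and 10.60 (difference 1.25, not called, adjusted p = 0.0575 in limma). The erythroid sum over 3 genes was 10.54 and 10.38 against 8.65 and 9.46, with Hba-a1 and Alas2 at background on all arrays and 0 of 1 called. These are the lists with the largest shifts. The stromal sum, over 9 genes of the kind of cell in which several Sfrp genes are known to be expressed, was 17.02 and 17.11 against 16.97 and 17.04, and 1 of 8 tested genes (Ogn) fell. For 7 peritubular and smooth muscle genes it was 15.20 and 15.21 against 15.09 and 15.04, with 1 of 5 called lower (Des) and Cnn1 at background. For 5 Leydig cell genes it was 15.45 and 15.20 against 15.13 and 14.94, with 0 of 5 called by limma. Lower without overlap were 4 of the 8 stromal genes (50%) and 3 of the 5 peritubular and smooth muscle genes (60%). The same held for 3 of the 5 Leydig cell genes (60%), with 0 higher without overlap in each of these lists. The germ cell sum over 8 genes was 14.71 and 14.62 against 14.52 and 14.56, with Dppa3 at background. Of its 6 tested genes Sall4 fell and 5 were not called, and the median difference was 0.13. Without overlap, 1 of the 6 (16.7%) was lower and 3 (50%) were higher, Dazl by 0.29, Ddx4 by 0.24 and Dnd1 by 0.43. The sums of the lists for tissue beside the testis lay close together. The epididymal and mesonephric sum over 7 genes was 11.00 and 11.18 against 11.21 and 11.26, higher without overlap (0 of 4 called, Cdh16 at background). The mesothelial sum over 7 genes was 9.75 and 9.75 against 9.63 and 10.12 (0 of 1 called), with Upk3b, Msln and Lrrn4 at background. Bnc1 alone read 9.69 and 9.70 against 9.54 and 10.05, so it made up most of the mesothelial sum. The macrophage sum over 7 genes was 8.40 and 9.07 against 8.18 and 9.02 (0 of 2 called), with C1qa and Cd163 at background.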

How the data were processed

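About 100 ng of total RNA a sample was amplified with a NuGEN Ovation kit and read on Affymetrix's Mouse Genome 430 2.0 array, per the labels' protocols. The deposited values are log2 levels that the authors had normalized between arrays. RMA and GCRMA are both named in the submitters' processing notes, with no version and no word on which made the table. That the scale is log2 was read from the values, which reach 16.2. Of 45101 probe sets, 64 controls were left out. Gene symbols are those of GEO's platform annotation, and all 89 member and pathway genes tested had their gene ID in the RefSeq table of GRCm38.p6.

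The test was limma 3.58.1 under R 4.3.3, with lmFit and then eBayes with a variance trend. It was two-sided and ran over the 20895 probe sets with a mean of at least 5, with Benjamini-Hochberg adjustment over all of them, and an adjusted p under 0.05 is a call. Residual degrees of freedom were 2 and prior ones 3.19. With 2 arrays against 2, exact permutation cannot give a p below 0.333 and was not used. The number of arrays limits the precision.

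The family and the lists were chosen with earlier results of these data known. Named are all members, the called genes and up to 3 others by p of each pathway list, up to 2 markers of each cell type and those at background, and the 6 genes most like Sfrp4 that are not clones or predicted genes. Amh, Dnd1, Axin2, Csnk1d, Fzd9 and Rspo2 were picked with their values in view. So were further probe sets, the neighbours of Sfrp4 and the untested ligands and targets. The settings varied were the level filter (none, a mean of 7, or 5 on 2 of 4 arrays), the normalization (quantile again, or medians set equal), the variance model (without the trend, or robust), the threshold (0.10), the probe set taken for a gene, a block for the replicate number, and each array left out. The labels do not say that a replicate number marks a shared litter or day.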

Additional observations from a re-analysis of the deposited data

How the results depend on the processing

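With 2 arrays a group, calls depend on the settings more than differences do. The Sfrp4 difference of 3.12 lay between 2.92 and 3.32 with each array left out and between 3.08 and 3.16 under both normalizations. Of the probe sets called, 1083 at the main settings, limma called 3 without the level filter (5250 at an unadjusted p under 0.05), 372 without a variance trend, 2216 at an adjusted p under 0.10 and between 0 and 1398 with 1 array left out: 0 without vehicle array 1 or 2 (2455 and 2820 at an unadjusted p under 0.05), 664 without treated array 1 and 1398 without treated array 2. For the Wnt pathway genes called, 4 at the main settings, the numbers were 0 without the filter (21 at an unadjusted p under 0.05), 2 (Wnt4 and Daam2) without a variance trend, 8 at an adjusted p under 0.10 and between 0 and 4 with 1 array left out. By the probe set of highest mean and with all 4 arrays, Wnt4 and Daam2 lost their call only without the filter. Prickle1 and Wnt6 lost it also without a variance trend. No difference of these 4 genes changed sign in any setting, and the cause of the lost calls was not tested. By any of their probe sets, Vps35, and Csnk1d of the destruction complex list, also passed with a mean of at least 7. Csnk1d passed with array medians set equal too, and Fzd9 with a level of 5 on 2 of 4 arrays. With the replicate number as a block limma called 1467 probe sets and 4 pathway genes; deviations of same-numbered arrays correlated at 0.014 over 20895 probe sets, so the numbers are not taken to pair the samples. Levels near 2.1 carry no order.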
